A study of Rattus norvegicus with 24 samples.

Results

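The transcriptional regulators Tsc22d1 and Foxq1 and the phosphatase subunit Ppp1r15a were followed through the kidney's response to a change of dietary salt in rats of 2 strains. The 3 genes were picked by symbol with earlier results of these arrays known, out of 1422 genes with a measured probe and a single symbol. Each has 2 probe identifiers on the array, of which 1 carried values, so that 3 of 1766 measured probes are described. Because the genes were picked with their log ratios in these 4 groups in view, their values and the differences between groups are given as descriptions without a test. Tests are given for the other genes of their pathways and for the dye-orientation difference, which the choice did not use.

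Each array compared kidney total RNA of 2 rats of a strain in Cy5 and Cy3, one marked LS and one HS in the titles, read here as low and high salt. The strains were the Dahl salt-sensitive SS rat, which becomes hypertensive on high salt, and the consomic SS-13BN/Mcw rat, which carries a Brown Norway chromosome on the SS background. The 4 groups were SS overnight, SS at 3 days, SS-13BN/Mcw overnight and SS-13BN/Mcw at 3 days, each with 3 rat pairs hybridised in both dye orientations, 24 arrays in all. The labels give neither the age of the rats nor the salt content of the diets, and both strains are inbred, so a pair stands for rats of one genotype. Within a strain, the array titles give rats 1 to 3 overnight and again at 3 days, so these rats are probably shared by both groups.

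Tsc22d1 encodes a leucine zipper protein of the TSC22 family, first found as a transcript induced by transforming growth factor beta (TGF-β), and is made in a long and a short form from separate start sites. Foxq1 encodes a forkhead transcription factor, a protein with a winged-helix DNA-binding domain. Ppp1r15a, also known as Gadd34, encodes a subunit that brings protein phosphatase 1 to the translation factor eIF2α, removes its phosphate and so lets translation resume after stress, and it is induced by the stress transcription factors ATF4 and CHOP.

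The promoter windows of the 3 genes are shown because regulators of one response can differ in the elements before their start sites. The RefSeq promoter table on the GRCr8 build held all 3 genes, with 2 start sites for Tsc22d1. The last 120 bases before each annotated start are printed, with matches to the 8 motifs searched on both strands in capitals.
Ppp1r15a, chr1:105139597-105139716, minus strand: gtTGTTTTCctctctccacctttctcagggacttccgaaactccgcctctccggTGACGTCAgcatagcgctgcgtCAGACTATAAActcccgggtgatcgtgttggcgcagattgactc
Tsc22d1 first start site, chr15:58159658-58159777, plus strand: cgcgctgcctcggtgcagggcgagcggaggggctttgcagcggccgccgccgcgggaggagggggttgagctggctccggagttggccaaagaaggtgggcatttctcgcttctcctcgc
Tsc22d1 second start site, chr15:58256881-58257000, plus strand: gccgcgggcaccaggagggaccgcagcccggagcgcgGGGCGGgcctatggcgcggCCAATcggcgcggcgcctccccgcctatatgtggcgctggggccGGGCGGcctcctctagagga
Foxq1, chr17:33124088-33124207, minus strand: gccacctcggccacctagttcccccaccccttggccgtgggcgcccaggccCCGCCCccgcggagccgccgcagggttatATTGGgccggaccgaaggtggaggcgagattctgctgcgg

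Among the windows of these genes, that of Ppp1r15a alone held the cAMP response element TGACGTCA, which began 66 bases before the start and is found in 1.59 percent of the 33469 promoter windows of 250 bases in the table. It also held the TATA box TATAAA at 39 bases (12.9 percent of windows), the SMAD core CAGAC at 44 bases (42.9 percent) and a match to the forkhead motif TGTTTNC at 118 bases (18.3 percent). The second start site of Tsc22d1 held the GC box GGGCGG at 20 and 83 bases (30.5 percent) and the CCAAT box CCAAT at 64 bases (34 percent), and its SMAD core lay outside the printed bases at 230. The first start site of Tsc22d1 held none of the 8 motifs in its 250 bases. Foxq1 held a CCAAT box at 40 bases and a GC box at 69 on the opposite strand, and farther out a SMAD core at 212, a GC box at 225 and a CCAAT box at 241. The AP-1 motif TGANTCA (6.34 percent) and the amino acid response element TGATGNAA (3.4 percent) were in none of the 4 windows, and no printed match overlaps another. The windows were 55.2 percent G and C in Ppp1r15a, 78.4 and 72 in Tsc22d1 and 71.6 in Foxq1. These matches describe letters and not binding, and the files do not tie the Tsc22d1 probe to either start site.

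Values below are deposited log ratios after each array was centred on its median. The log base is not stated, so no fold is given, and the numerator is not stated, so a gene is placed above or below 0 (the positive or negative side) with no direction of salt. Both arrays of a pair were averaged without turning a sign, because swapped arrays correlated positively in 12 of 12 pairs once the mean of the other arrays of their orientation was removed (r from 0.169 to 0.825). Before that removal r ran from -0.0595 to 0.749. An array held values for 877 to 1412 probes, and precision is limited by the small number of arrays. In bulk kidney RNA, fewer cells of a type and less RNA per cell cannot be told apart. Of 25 proximal tubule markers 18 had values, but ratios do not show whether a marker was abundant, so the tissue label was not checked by levels.

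Tsc22d1 lay on the positive side overnight in both strains and closer to 0 at 3 days in both. In SS overnight the values of pairs 1, 2 and 3 were 1.07, 0.47 and 0.55, with a mean of 0.70 ± 0.33 (SD, n = 3). In SS-13BN/Mcw overnight they were 0.35, 0.81 and 0.55, with a mean of 0.57 ± 0.23 (SD, n = 3). All 6 overnight pairs were thus positive, and the values of both strains overlapped. One sign in every complete pair was found in 41.7 percent of tested probes in SS overnight and in 57.5 percent in SS-13BN/Mcw overnight, and nothing is read from this because such values chose the gene.

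At 3 days the Tsc22d1 values of SS pairs 1, 2 and 3 were 0.43, -0.06 and 0.27, a mean of 0.21 ± 0.25 (SD, n = 3). Those of SS-13BN/Mcw were 0.07, -0.03 and 0.10, a mean of 0.05 ± 0.07 (SD, n = 3). Pair 2 was below 0 in both strains, so neither group held one sign, while 31.7 percent of tested probes did in SS and 47.6 percent in SS-13BN/Mcw at this time. The spread between pairs of SS-13BN/Mcw at 3 days was narrow, with 21.9 percent of tested probes having a smaller SD, against 92.3 percent in SS overnight.

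In the order of its means Tsc22d1 ran from SS overnight through SS-13BN/Mcw overnight and SS at 3 days to SS-13BN/Mcw at 3 days, and each neighbour in this order overlapped the next in pair values. Within a strain the times did not overlap. The lowest overnight pair of SS stood at 0.47 and its highest 3-day pair at 0.43, and the fitted difference, 3 days minus overnight, was -0.48 ± 0.17 (SE), the 8th largest in size of 880 probes. In SS-13BN/Mcw the lowest overnight pair was 0.35 and the highest 3-day pair 0.10, with a difference of -0.52 ± 0.17 (SE), ranked 28 of 897. Pair values failed to overlap between times in 7.50 percent of probes in SS and in 22.7 percent in SS-13BN/Mcw.

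Between pairs that carry the same low rat number, 3 days minus overnight, Tsc22d1 differed by -0.64, -0.53 and -0.28 in SS and by -0.28, -0.84 and -0.45 in SS-13BN/Mcw, so all 6 were negative. Without pair 1 of SS overnight alone the fitted difference between times was -0.30, and the difference between strains overnight moved from 0.13 to -0.06. The 3-day mean of SS was 0.10 without pair 1 and 0.35 without pair 2. At 3 days the difference between strains was 0.06 without pair 1 of SS and 0.30 without pair 2 of SS. The 3-day mean of SS-13BN/Mcw ran from 0.02 without pair 3 to 0.08 without pair 2, and was -0.05 on the Cy5 arrays of the low-numbered rat alone.

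**Figure D1:**
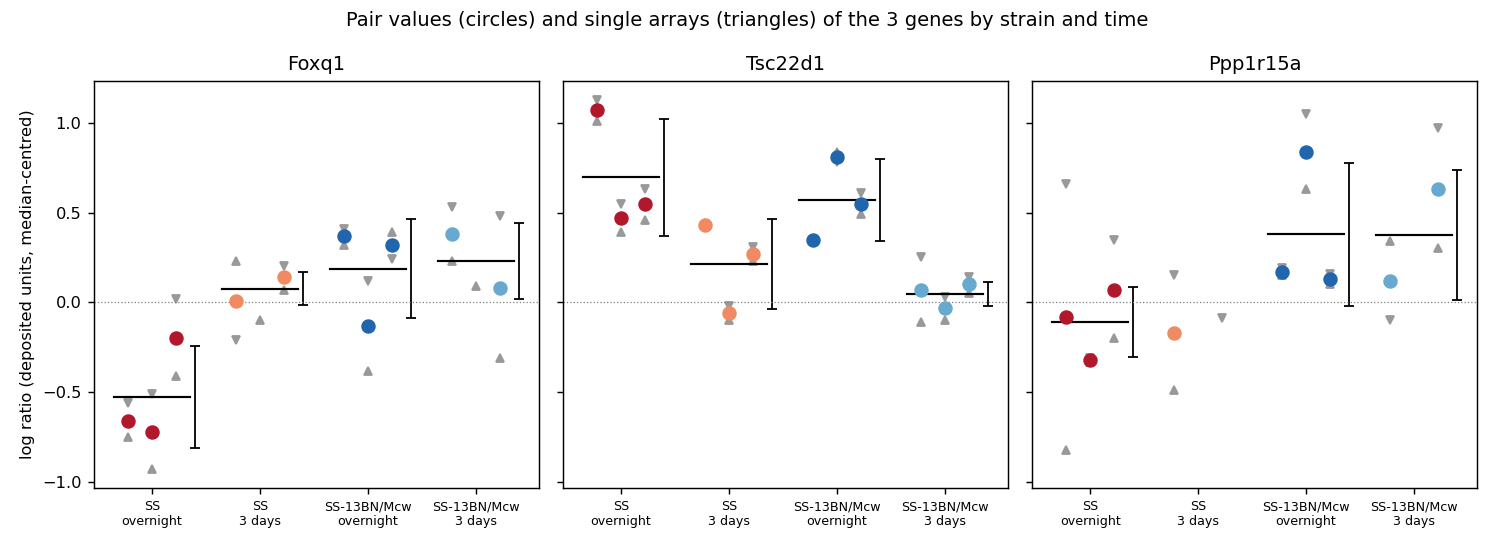
Median-centred log ratio in deposited units (vertical) of Foxq1, Tsc22d1 and Ppp1r15a in the 4 strain and time groups, with circles for rat pairs 1 to 3 from left, grey triangles for single arrays (pointing up with the low-numbered rat in Cy5, down with it in Cy3), bars for the mean and whiskers for SD over pairs. Tsc22d1 lies at 0.35 or above in all 6 overnight pairs, Foxq1 lies below 0 in the 3 pairs of SS overnight, and Ppp1r15a has 1 complete pair in SS at 3 days.

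Foxq1 stood apart in SS overnight, where it lay on the negative side, while the means of the other 3 groups were above 0. The values of SS overnight pairs 1, 2 and 3 were -0.66, -0.72 and -0.20, a mean of -0.52 ± 0.29 (SD, n = 3). In SS-13BN/Mcw overnight they were 0.37, -0.13 and 0.32, a mean of 0.18 ± 0.27 (SD, n = 3). The groups did not overlap, although pair 3 of SS and pair 2 of SS-13BN/Mcw lay close to each other.

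At 3 days Foxq1 had both orientations in 2 of 3 pairs of each strain. SS pairs 1 and 3 stood at 0.01 and 0.14, a mean of 0.07 ± 0.09 (SD, n = 2), and the single array of pair 2 at -0.10. SS-13BN/Mcw pairs 1 and 3 stood at 0.38 and 0.08, a mean of 0.23 ± 0.21 (SD, n = 2), and the single array of pair 2 at 0.09. The strains overlapped at this time.

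From the highest mean to the lowest, Foxq1 ran from SS-13BN/Mcw at 3 days through SS-13BN/Mcw overnight and SS at 3 days to SS overnight, and of the neighbours in this order the last pair of groups did not overlap. The fitted difference between times in SS was 0.60 ± 0.20 (SE), the 2nd largest in size of 880 probes, against 0.05 ± 0.20 in SS-13BN/Mcw, ranked 726 of 897. The fitted difference between strains overnight, SS minus SS-13BN/Mcw, was -0.71 ± 0.18 (SE), the 14th largest of 1053, and at 3 days it was -0.16 ± 0.21, ranked 295 of 824. Pair values failed to overlap between strains in 10.9 percent of probes overnight and in 15.8 percent at 3 days, and between times in SS in 7.50 percent. Leaving out a pair of either group moved the overnight strain difference between -0.87 and -0.61. Leaving out an overnight pair moved the difference between times in SS between 0.50 and 0.76, and it could not be fitted without pair 1 or 3 at 3 days. In SS-13BN/Mcw the overnight mean was 0.09 without pair 1 and 0.34 without pair 2, and the difference between times was 0.14 and -0.11 without the same pairs.

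Ppp1r15a had the fewest values of the 3 genes, and its strains lay apart overnight by a narrow gap. SS overnight pairs 1, 2 and 3 stood at -0.08, -0.32 and 0.07, a mean of -0.11 ± 0.20 (SD, n = 3). SS-13BN/Mcw overnight pairs stood at 0.17, 0.84 and 0.13, a mean of 0.38 ± 0.40 (SD, n = 3). The highest SS pair lay just under the lowest SS-13BN/Mcw pair, and pair 2 of SS-13BN/Mcw lay far above the others.

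At 3 days Ppp1r15a was complete in pair 1 of SS at -0.17, with a single array of pair 3 at -0.09, so that SS at 3 days entered no comparison of this gene. SS-13BN/Mcw pairs 1 and 3 stood at 0.12 and 0.63, a mean of 0.37 ± 0.36 (SD, n = 2), and overlapped the overnight values of the strain. The fitted strain difference overnight was -0.49 ± 0.21 (SE), the 35th largest of 1053 probes, and without pair 2 of SS-13BN/Mcw it was -0.26. The time difference in SS-13BN/Mcw was -0.00 ± 0.24 (SE), ranked 885 of 897. Without overnight pair 2 of that strain its overnight mean was 0.15 and its time difference 0.23, and without overnight pair 3 the time difference was -0.13. The overnight mean of SS was -0.20 without pair 3 and -0.00 without pair 2. The SDs of this gene were wide, with 91.2 and 95.4 percent of tested probes having a smaller one in the overnight and the 3-day group of SS-13BN/Mcw. By its means Ppp1r15a ran from SS-13BN/Mcw overnight and SS-13BN/Mcw at 3 days, which overlapped, down to SS overnight, which overlapped neither. Pair values failed to overlap between strains overnight in 10.9 percent of probes. For SS overnight against SS-13BN/Mcw at 3 days, with 2 complete pairs, no share was computed.

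Across all probes neither strain nor time differences passed the threshold in limma, an adjusted p under 0.05 by Benjamini-Hochberg. No test is read for the 3 genes, and Ppp1r15a entered neither the strain comparison at 3 days nor the time comparison in SS. The called share was 0.00 percent in each, with 0 of 1053 probes between strains overnight, 0 of 824 between strains at 3 days, 0 of 880 between times in SS and 0 of 897 between times in SS-13BN/Mcw. At an unadjusted p under 0.05 the counts over all probes were 51, 67, 17 and 100. The number just before the rat names in each array title is not labelled and is read here as a slide number. These numbers form 1 run for each SS group, apart from those of SS-13BN/Mcw. Whether they follow the order of processing is not stated. The part of such an order in any difference that includes SS cannot be told apart from strain or time.

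Agreement between the swapped arrays of a pair differed among the genes. For Tsc22d1 the array with the low-numbered rat in Cy5 and the one with it in Cy3 gave 1.01 and 1.13 in pair 1 of SS overnight and 0.84 and 0.78 in pair 2 of SS-13BN/Mcw overnight. Its arrays had the same sign in 10 of 12 pairs, and the exceptions were pairs 1 and 2 of SS-13BN/Mcw at 3 days, close to 0. Over all probes measured in at least 2 pairs of each group the share was 51.0 percent of 9679 comparisons.

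For Foxq1 the swapped arrays had the same sign in 6 of 10 pairs. In SS overnight they gave -0.75 and -0.56 in pair 1, -0.93 and -0.51 in pair 2, and -0.41 and 0.02 in pair 3, so that 5 of 6 arrays were negative. In pair 1 of SS at 3 days they gave 0.23 and -0.21, and in pair 3 of SS-13BN/Mcw at 3 days -0.31 and 0.48. With the low-numbered rat in Cy5 alone the mean of SS-13BN/Mcw at 3 days was 0.00, and with it in Cy3 alone 0.51.

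For Ppp1r15a the signs matched in 5 of 9 pairs. In pair 1 of SS overnight the arrays gave -0.82 and 0.66, a mean near 0 from arrays far apart, and the mean of SS overnight was -0.45 from Cy5 arrays of the low-numbered rat and 0.23 from Cy3 arrays. In SS-13BN/Mcw overnight all 6 arrays were positive, from 0.10 to 1.05. The value of Ppp1r15a in SS overnight thus rests on arrays of opposite sign in pairs 1 and 3, and that of SS-13BN/Mcw overnight on arrays of one sign.

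The difference between swapped arrays, Cy5 minus Cy3 for the low-numbered rat, was not used to choose the genes, which rested on pair means. It can still be related to those means where the orientations differ in spread, which was not checked. The difference was tested over all groups. It was -0.22 ± 0.0844 (SE) in Foxq1, lower with Cy5 in 8 of 10 pairs (adjusted p = 0.0350 in limma), and -0.10 ± 0.0444 (SE) in Tsc22d1, lower in 9 of 12 pairs (adjusted p = 0.0551). Foxq1 was past the threshold as 1 of 2 members tested, and 558 of 822 probes or 67.9 percent were, so a dye difference is no mark of these genes. The mean difference of Ppp1r15a was -0.38 ± 0.55 (SD, n = 9), lower in 8 of 9 pairs, and it had too few pairs to be tested. Foxq1 did not pass without pair 2 or pair 3 of SS overnight or pair 2 of SS-13BN/Mcw overnight (adjusted p from 0.0629 to 0.0749), and without a complete 3-day pair of either strain it could not be tested. Tsc22d1 passed without pair 3 of SS-13BN/Mcw at 3 days (adjusted p = 0.0386), and its difference was -0.01 with arrays scaled to one spread.

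**Figure D2:**
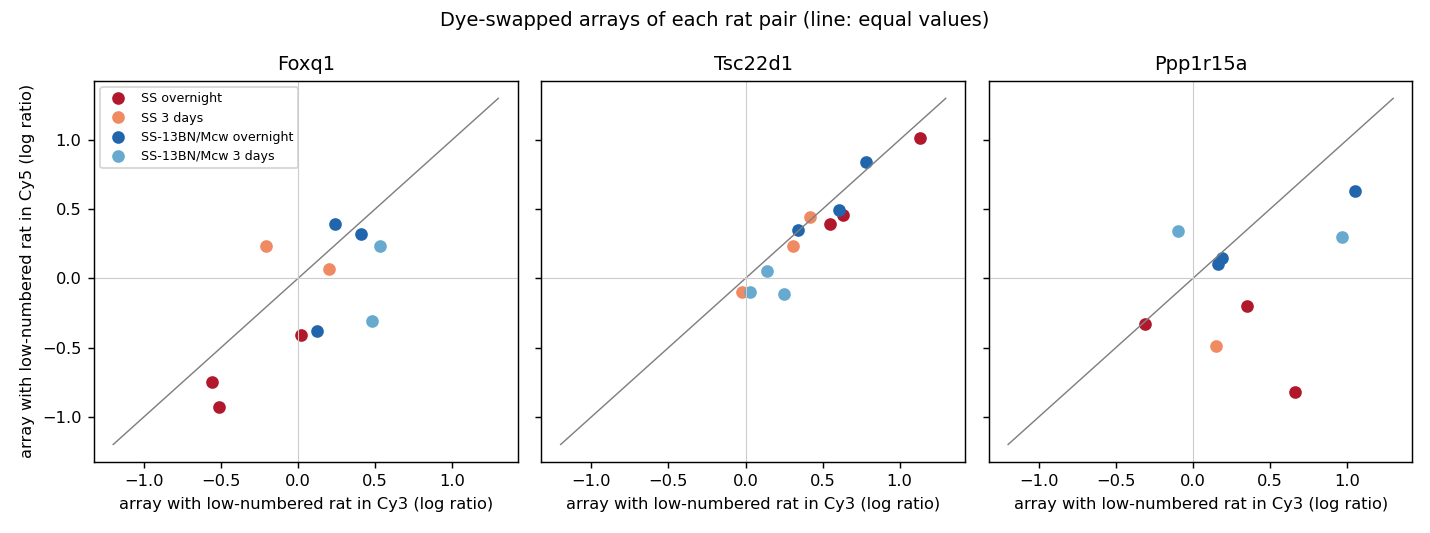
Log ratio of each rat pair on the array with the low-numbered rat in Cy3 (horizontal) against the array with it in Cy5 (vertical), in deposited units, coloured by group, with a line of equal values. Tsc22d1 pairs lie along the line up to 1.13 and 1.01, while pair 1 of SS overnight in Ppp1r15a lies at 0.66 and -0.82.

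The pair values of the genes were set against each other. Over 10 pairs Foxq1 and Tsc22d1 had a Pearson r of -0.63 and a Spearman rho of -0.62. Over 9 pairs Foxq1 and Ppp1r15a had r 0.36 and rho 0.52, and Tsc22d1 and Ppp1r15a r -0.08 and rho -0.08. These are descriptions over pairs that share rats between times and arrays between genes, and they carry no p.

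The genes most like each regulator were taken as the 3 with the highest Pearson r of pair values over at least 10 pairs. For Tsc22d1, among 707 probes, these were Sqle, an epoxidase of cholesterol synthesis (r 0.89, rho 0.68, 10 pairs), Timp1, an inhibitor of matrix metalloproteinases (r 0.84, rho 0.84, 10 pairs), and Ceacam4, a gene of the carcinoembryonic antigen family (r 0.83, rho 0.78, 12 pairs). Without the 2 pairs in which Tsc22d1 lay farthest from its median the r values were 0.73, 0.72 and 0.63. The overnight values of Timp1 were 0.94, 0.63 and 0.70 in SS. In SS-13BN/Mcw they were 0.61, 0.55 and 0.97, above its 3-day values of 0.25, 0.10 and 0.14 in that strain. In SS at 3 days Timp1 had 1 complete pair, pair 3 at 0.40. Timp1 is also in the list of matrix-producing interstitial markers used below, without entering the mean of that list.

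For Foxq1, among 645 probes, the most alike were Nfib, a transcription factor of the nuclear factor I family (r 0.81, rho 0.76), Golga2, a Golgi matrix protein (r 0.80, rho 0.68), and Sptan1, a spectrin chain of the membrane skeleton (r 0.79, rho 0.81), each over 10 pairs. Without the 2 farthest pairs r was 0.61, 0.41 and 0.81, so the likeness to Golga2 rested most on pairs 1 and 2 of SS overnight. Golga2 stayed between -0.21 and 0.14 in all 12 pairs, a far smaller range than that of Foxq1. Ppp1r15a had 9 complete pairs, fewer than the 10 required, and no alike gene is named for it.

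**Figure D3:**
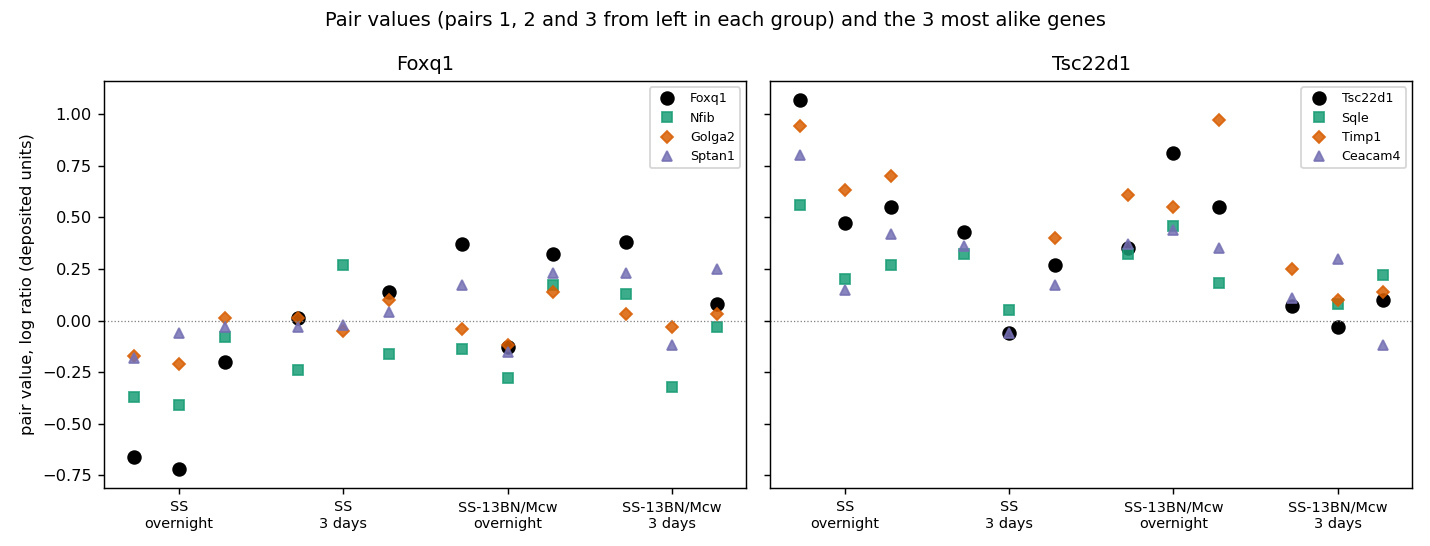
Pair values in deposited log-ratio units (vertical) of Foxq1 and Tsc22d1 (black) and of the 3 genes most like each (coloured), for pairs 1, 2 and 3 from left within each of the 4 groups. Timp1 lies at 0.55 or above in all 6 overnight pairs and at 0.25 or below in SS-13BN/Mcw at 3 days, the overnight values of Sqle run from 0.18 to 0.56 and overlap its 3-day values, and Golga2 keeps within -0.21 and 0.14 while Foxq1 reaches -0.72.

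Markers of several cell types were read beside these genes. Over all tested probes 51.6, 48.7, 49.6 and 49.3 percent were positive in SS overnight, SS at 3 days, SS-13BN/Mcw overnight and SS-13BN/Mcw at 3 days. Matrix-producing interstitial markers, of which 8 of 10 had values, averaged from 0.31 to 0.81 over the pairs of SS overnight, from 0.19 to 0.98 in SS at 3 days, from 0.33 to 0.71 in SS-13BN/Mcw overnight and from -0.13 to -0.01 in SS-13BN/Mcw at 3 days (mean of 4 genes complete in all pairs). Their mean had r 0.64 and rho 0.54 with Tsc22d1 over 12 pairs, and r -0.31 with Foxq1 over 10 and -0.49 with Ppp1r15a over 9. Positive members numbered 6 of 7, 4 of 5, 6 of 6 and 4 of 6 tested in the same order of groups. Of these 3, 1, 2 and 0 were called, against 1.14, 0.340, 10.5 and 2.98 percent of all probes. Lum and Fn1 had 2 and 1 complete pairs, and Col1a2 and Pdgfrb were not analysed here.

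Proximal tubule markers lay on the negative side in each group, with 14 of 16, 13 of 14, 16 of 18 and 15 of 17 tested genes negative in SS overnight, SS at 3 days, SS-13BN/Mcw overnight and SS-13BN/Mcw at 3 days. Of these 1, 0, 15 and 9 were called, nearly all of them in SS-13BN/Mcw, against 1.14, 0.340, 10.5 and 2.98 percent of all probes. The mean of 10 complete genes ran from -0.68 to -0.34, from -1.03 to -0.19, from -1.74 to -0.71 and from -1.07 to -0.79. It had r -0.05 with Tsc22d1, -0.36 with Foxq1 and -0.24 with Ppp1r15a. Thick ascending limb and distal markers were all negative, 5 of 5 in each, in the first 3 of these groups and 2 of 5 in SS-13BN/Mcw at 3 days, with 1 call, in SS-13BN/Mcw overnight, and their mean had r -0.57 with Tsc22d1. The mean of 3 collecting duct markers had r -0.53 with Tsc22d1, and 1 collecting duct gene was called, on the positive side in SS-13BN/Mcw at 3 days. Of the endothelial markers 2 of 9 had values, with 1 called positive in each overnight group. Kdr, the endothelial marker complete in all 12 pairs, had r 0.31 and rho 0.58 with Foxq1, r 0.06 with Tsc22d1 and r 0.11 with Ppp1r15a. Of the immune markers 2 of 10 had values and none was complete in all pairs. The part of these cell types in the values of the 3 genes was not tested.

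The pathways of the 3 genes were covered by 4 lists with 56 measured genes other than the members. Genes called, by an adjusted p under 0.05 over all probes, numbered 1 of 43 tested in SS overnight, where 1.14 percent of all probes were called, and 0 of 38 in SS at 3 days, where 0.340 percent were, with 4 list genes at an unadjusted p under 0.05. They numbered 4 of 43 in SS-13BN/Mcw overnight (all probes 10.5 percent) and 3 of 36 in SS-13BN/Mcw at 3 days (2.98 percent). Strain and time differences called none of the list genes, with 0, 6, 0 and 10 at an unadjusted p under 0.05 in the order given above. The 3 calls of SS-13BN/Mcw at 3 days all lie in the steroid and tonicity list, as 3 of its 8 tested genes. Dcn is also a matrix marker, Ppp1r1a a thick ascending limb marker, and Scnn1a and Hsd11b2 collecting duct markers in the cell type lists.

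Ppp1r15a ends the eIF2α stress response, and the list of this response and of protein phosphatase 1 also holds genes of protein folding. In this list the chaperone calreticulin (Calr) and the stress transcription factor Ddit3, also known as CHOP, were positive past the threshold. The folding genes Pdia3 and Pdia6 did not pass in any group. Calr, which folds glycoproteins in the endoplasmic reticulum, stood at 0.34, 0.24 and 0.41 in SS overnight (mean 0.33 ± 0.08, SD, n = 3, adjusted p = 0.0430, and 0.0527 when a block for the low-numbered rat was added, which ends the call) and at 0.16, 0.21 and 0.40 in SS-13BN/Mcw overnight (0.26 ± 0.13, n = 3, adjusted p = 0.0389). It was positive in every pair of all groups, with 0.32 ± 0.04 in SS at 3 days (adjusted p = 0.0730) and 0.16 ± 0.09 in SS-13BN/Mcw at 3 days (adjusted p = 0.299). Ddit3 stood at 0.23, 0.41 and 0.41 in SS-13BN/Mcw overnight (0.35 ± 0.10, n = 3, adjusted p = 0.0176), where Ppp1r15a stood at 0.17, 0.84 and 0.13. Ddit3 did not pass elsewhere. It was -0.01 ± 0.10 in SS at 3 days (adjusted p = 0.987), with 1 positive and 2 negative pairs. In SS overnight it was 0.19 ± 0.17 (adjusted p = 0.266) and in SS-13BN/Mcw at 3 days 0.22 ± 0.05 (adjusted p = 0.167).

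The list of the stress response and of protein phosphatase 1 had medians of 0.03, -0.01, 0.03 and 0.10 over 13, 10, 13 and 11 tested genes in SS overnight, SS at 3 days, SS-13BN/Mcw overnight and SS-13BN/Mcw at 3 days, against medians of 0.01, -0.01, -0.00 and -0.00 over all probes. Of its tested genes 7, 3, 8 and 8 were positive. Ppp1r1a, an inhibitor of protein phosphatase 1, did not pass and stood at -0.32 ± 0.17 in SS overnight (adjusted p = 0.0796), -0.31 ± 0.09 in SS at 3 days (0.162) and -0.23 ± 0.13 in SS-13BN/Mcw overnight (0.0975), negative in each of these pairs. Gadd45a, a stress-induced growth arrest gene, stood at -0.27 ± 0.46 in SS at 3 days (adjusted p = 0.517). Eif2b2, a subunit of the exchange factor of eIF2, stood at 0.29 ± 0.18 in 2 pairs of SS-13BN/Mcw at 3 days (adjusted p = 0.316).

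In TGF-β signalling, which induces Tsc22d1, the ligand gene Bmp4 was called on the negative side in SS-13BN/Mcw overnight, at -0.27 and -0.79 in its 2 complete pairs (mean -0.53, adjusted p = 0.0448), and was negative in SS overnight at -0.38 ± 0.06 without passing (adjusted p = 0.164). The list medians were 0.09, 0.03, 0.12 and 0.00 over 13, 12, 13 and 10 tested genes, with 9, 8, 11 and 5 positive. Ccn2, a matricellular protein induced by TGF-β, stood at 0.27 ± 0.38 in SS at 3 days (adjusted p = 0.517) and 0.40 ± 0.27 in SS-13BN/Mcw overnight (0.102). The proteoglycan gene Dcn stood at 0.40 ± 0.78 in SS at 3 days (adjusted p = 0.555), and the ligand Bmp6 at 0.21 ± 0.11 in SS overnight (0.285).

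Other genes of this list did not pass either. Fkbp1a, which binds TGF-β receptors, stood at 0.17 ± 0.10 in SS overnight (adjusted p = 0.301) and -0.15 ± 0.03 in SS-13BN/Mcw at 3 days (0.330). The signal transducers Smad2 and Smad4 stood at 0.14 ± 0.03 in SS-13BN/Mcw overnight (adjusted p = 0.195) and 0.17 ± 0.37 in SS-13BN/Mcw at 3 days (0.456). The inhibitors of differentiation Id1 and Id3 stood at -0.14 ± 0.25 in SS at 3 days (adjusted p = 0.667) and -0.23 ± 0.26 in SS-13BN/Mcw at 3 days (0.420). Tsc22d2, Tsc22d3 and Tsc22d4 were not analysed here.

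**Figure D4:**
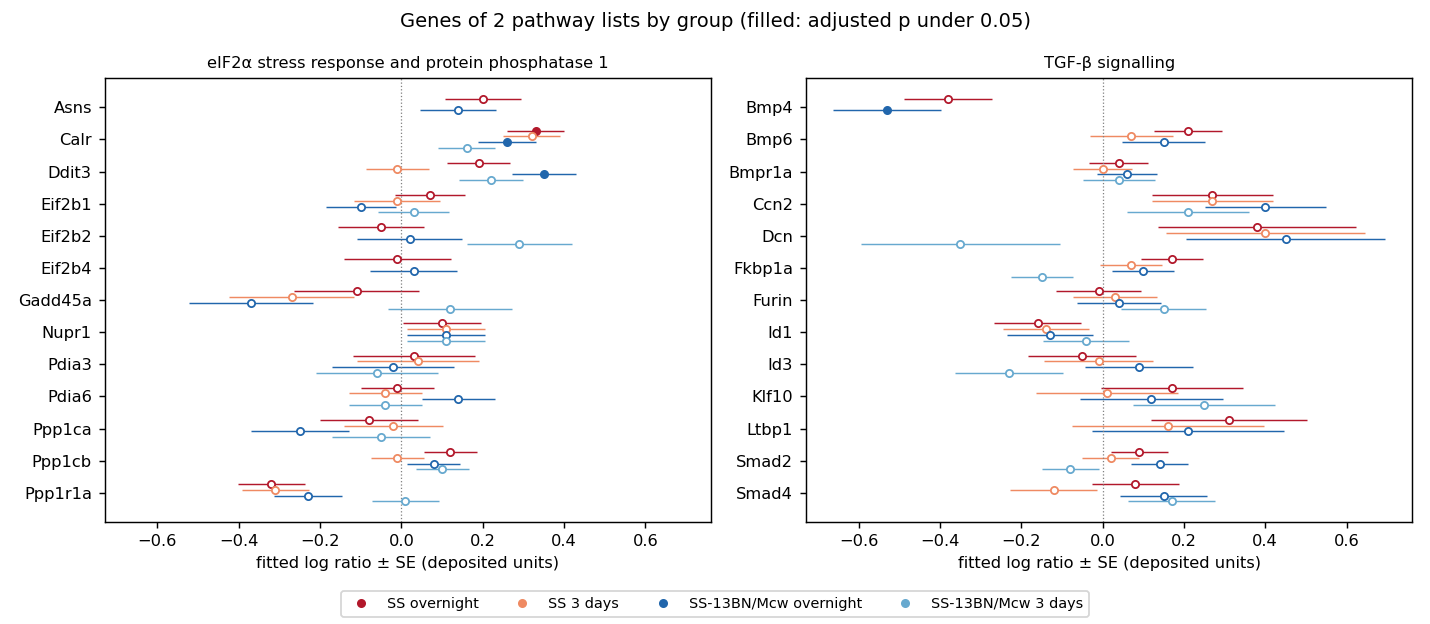
Fitted log ratio ± SE in deposited units (horizontal) of each tested gene of the eIF2α stress response and TGF-β lists (rows) in the 4 groups (colours), with filled points for an adjusted p under 0.05. Filled points in SS-13BN/Mcw overnight are Calr at 0.26, Ddit3 at 0.35 and Bmp4 at -0.53, and the filled point in SS overnight is Calr at 0.33.

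Forkhead and early response transcription factors, the class of Foxq1, had 0 called genes of 8, 7, 8 and 7 tested in the groups in that order in limma, while 1, 0, 2 and 0 had a p under 0.05 before adjustment. Foxj1, a forkhead factor of ciliated cells and the 1 forkhead gene of the list with values, stood at -0.18 ± 0.22 in 2 pairs of SS at 3 days (adjusted p = 0.619). The interferon-induced factor Irf1 stood at 0.31 ± 0.28 in SS overnight (adjusted p = 0.317) and 0.40 ± 0.16 in SS-13BN/Mcw overnight (0.0811). Egr1, an early growth response factor, stood at 0.73 ± 0.47 in SS-13BN/Mcw at 3 days (adjusted p = 0.403). Cebpd, a factor of the acute phase, stood at 0.23 ± 0.14 and 0.32 ± 0.58 in SS and SS-13BN/Mcw overnight (adjusted p = 0.566 and 0.255).

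In the same list Btg1, an antiproliferative gene, stood at -0.08 ± 0.11 in SS at 3 days (adjusted p = 0.705) and 0.22 ± 0.09 in SS-13BN/Mcw overnight (0.0813). Hes1, a target of Notch signalling, stood at 0.34 ± 0.43 in 2 pairs of SS-13BN/Mcw at 3 days (adjusted p = 0.403). Nfkb1, a subunit of NF-κB, stood at 0.11 ± 0.10 in SS overnight, 0.12 ± 0.21 in SS at 3 days and -0.15 ± 0.09 in SS-13BN/Mcw at 3 days (adjusted p = 0.568, 0.634 and 0.403).

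Steroid and tonicity response genes held the remaining calls, all in SS-13BN/Mcw. Overnight it was angiotensinogen (Agt), at -0.24, -0.51 and -1.42 (mean -0.72 ± 0.62, SD, n = 3, adjusted p = 0.0389). At 3 days they were Hsd11b1, which regenerates active glucocorticoid, at -1.10 ± 0.14 (adjusted p = 0.00677), the sodium channel subunit Scnn1a at 0.28 ± 0.09 and the sodium pump subunit Atp1b1 at 0.41 ± 0.22 (both adjusted p = 0.0342). Over 9, 9, 9 and 8 tested genes 3, 4, 2 and 3 were positive, and the medians were -0.05, -0.09, -0.08 and -0.02.

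Atp1b1 did not pass elsewhere, with 0.19 ± 0.08 in SS overnight (adjusted p = 0.339), 0.31 ± 0.10 in SS at 3 days (0.163) and 0.20 ± 0.19 in SS-13BN/Mcw overnight (0.162), positive in every pair. The mineralocorticoid receptor gene Nr3c2 stood at -0.21 ± 0.24 in SS overnight (adjusted p = 0.380) and -0.24 ± 0.29 in SS at 3 days (0.415). Hsd11b2, which inactivates glucocorticoid in the distal nephron, stood at -0.16 ± 0.17 in SS at 3 days (adjusted p = 0.553) and -0.23 ± 0.10 in SS-13BN/Mcw overnight (0.127). In SS-13BN/Mcw at 3 days Hsd11b2 was above 0 in 3 of 3 pairs, at 0.27 ± 0.22 (adjusted p = 0.167). Agt stood at -0.27 ± 0.13 in SS overnight (adjusted p = 0.501).

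The calls of the list genes depended on single pairs. With each of the 12 pairs left out in turn, Hsd11b1 and Ddit3 kept their calls in 10 of 12 fits and lost them without pair 2 or pair 3 of their own group (highest adjusted p = 0.0921 and 0.103). Agt kept its call in 8 of 12 fits, losing it without pair 2 or 3 of its group and pair 2 or 3 of SS overnight, and its mean was -0.38 without pair 3 (adjusted p = 0.142). Calr in SS overnight kept its call in 2 of 12, without pair 1 of SS at 3 days and without pair 3 of SS-13BN/Mcw overnight, and without pair 1 of its own group the adjusted p was 0.346.

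Calr in SS-13BN/Mcw overnight kept its call in 7 of 12 fits and lost it without pair 2 or 3 of its group, pair 1 of SS overnight, pair 2 of SS at 3 days or pair 2 of SS-13BN/Mcw at 3 days. Atp1b1 in SS-13BN/Mcw at 3 days kept it in 6 of 12 and Scnn1a in 5 of 12, with the highest adjusted p, 0.431 and 0.419, without pair 3 of that group. Bmp4 kept it in 4 of 10, namely without a pair of SS at 3 days or pair 3 of SS-13BN/Mcw at 3 days, and could not be tested without either of its own pairs. Fitted alone, without the other groups, Calr, Ddit3, Agt, Bmp4, Scnn1a and Atp1b1 did not pass in the groups named (adjusted p from 0.0729 to 0.156). With Cy5 arrays of the low-numbered rat alone, Bmp4, Calr in SS overnight, Scnn1a and Atp1b1 did not pass in limma (adjusted p from 0.0567 to 0.392). With Cy3 arrays of that rat alone, Ddit3, Calr in SS-13BN/Mcw overnight and Scnn1a did not pass (adjusted p from 0.0669 to 0.192). Agt and Hsd11b1 passed in either orientation.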

How the data were processed

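Kidney RNA was measured on 24 cDNA arrays with 2 channels. The authors deposited log ratios, 1 for each probe on each array. Their base, their numerator and the scanner processing behind them were not given in the sources used here. Array means are near 0 (largest 0.000822 in size). Of 1766 measured probes 1426 had 1 gene symbol, 29 had several and 311 none in the platform annotation, and 1421 were matched to RefSeq by gene number.

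Arrays were centred on the median and the swapped arrays of a pair averaged, which needs both. limma 3.58.1 in R 4.3.3 fitted 1 coefficient per group over 12 pairs with eBayes, two-sided, adjusted by Benjamini-Hochberg over probes with at least 2 complete pairs per group compared. So p-values rest on the spread from pair to pair. Each comparison was tested on simulated data with independent noise in each pair, so a rat shared between times was not simulated. Shifts of 0.5 were recovered in 64 percent of probes (times in SS-13BN/Mcw) to 100 percent (dye difference). Many probes were shifted at once in each simulation, some by more than 0.5, which eases the threshold after adjustment. Recovery in real comparisons without calls can therefore be lower, and its size was not tested. Of the calls 2.4 percent (dye difference) to 7.3 percent (SS at 3 days) were false. Members, lists and rules were chosen with earlier results of these data known.

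Titles repeat low rat numbers at both times, so the same rat is likely shared. Deviations of same-numbered pairs correlated at 0.521, 0.0592 and 0.646 in SS and 0.394, 0.285 and 0.213 in SS-13BN/Mcw, and treating the shared rat as a random block (statmod 1.5.0, correlation 0.272) was an alternative.

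Named list genes were those called and, per list and group, the 3 with the smallest p. Figures used matplotlib 3.10.9 in Python 3.11.15.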

Additional observations from a re-analysis of the deposited data

Results flagged for a closer look

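Several genes had pair values on opposite sides of 0 at the 2 times of a strain. Foxq1 was negative in 3 of 3 complete pairs of SS overnight and positive in 2 of 2 at 3 days (means -0.52 and 0.07, difference 0.60). At 3 days pair 1 stood at 0.01, from swapped arrays at 0.23 and -0.21, and pair 3 at 0.14. The single array of pair 2 stood at -0.10, so the positive side at 3 days is weakly held. The difference between times was not tested because the gene was chosen from these values.

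In SS-13BN/Mcw, 3 days minus overnight, the list genes with every pair on opposite sides were the proteoglycan Dcn (difference -0.81, adjusted p = 0.444), Hsd11b2 (0.50, adjusted p = 0.294), Nfkb1 (-0.29, adjusted p = 0.444), Scnn1a (0.37, adjusted p = 0.294), Smad2 (-0.22, adjusted p = 0.444) and Eif2b1 of the stress response list (0.13, adjusted p = 0.666). In SS it was Smad4 (-0.20, adjusted p = 0.987). Each has 3 pairs a time, and none of these differences passed in limma. Pair values failed to overlap between times, on whichever side of 0, in 22.7 percent of all probes in SS-13BN/Mcw and 7.50 percent in SS. The share on opposite sides was not counted, so nothing is read from the number of these genes. In SS-13BN/Mcw, Smad2 stood at -0.00 in pair 3 at 3 days and Nfkb1 at 0.01 in pair 2 overnight.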

How the results depend on the processing

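The counts of called list genes, 1, 0, 4 and 3 in SS overnight, SS at 3 days, SS-13BN/Mcw overnight and SS-13BN/Mcw at 3 days, changed with the processing. In SS overnight they were 3 with arrays scaled to one spread, 3 after quantile normalization, 18 with the array of the low-numbered rat in Cy3 turned, 3 with Cy5 arrays of that rat alone, 3 with its Cy3 arrays alone, 0 in a fit of the group alone and 0 when a block for the low-numbered rat (the pairing) was added, in limma. In SS at 3 days they were 1 after quantile normalization, 16 with arrays turned, 4 with Cy5 and 2 with Cy3 arrays alone. In SS-13BN/Mcw overnight they were 12 turned, 7 and 10 with Cy5 and Cy3 arrays alone and 0 in a fit of the group alone. In SS-13BN/Mcw at 3 days they were 14 turned and 7 with Cy3 arrays alone. Over all probes the counts changed too, from 13, 3, 116 and 27 in the 4 groups to 324, 326, 301 and 287 with arrays turned, 68, 16, 141 and 66 after quantile normalization, 50, 7, 138 and 58 with arrays scaled, 34, 62, 111 and 29 with Cy5 arrays alone, 114, 47, 283 and 153 with Cy3 arrays alone and 31, 0, 0 and 30 in fits of 1 group alone. The block left 0 calls of strain and time differences. With 1 pair left out the ranges were 0 to 1, 0 to 1, 0 to 5 and 0 to 3 for the groups, 0 to 0 and 0 to 1 for strains overnight and at 3 days, and 0 to 0 and 0 to 1 for times in SS and SS-13BN/Mcw. The dye test called 1 member, 0 with all 3 pairs required, where Foxq1 could not be tested, and 0 to 1 with a pair left out.

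With arrays turned, members with one sign in every pair or no overlap changed sign in 6 values, namely Foxq1 in SS-13BN/Mcw at 3 days (-0.27), Tsc22d1 in SS overnight (-0.07), SS-13BN/Mcw overnight (-0.01) and between times in SS (0.05), and Ppp1r15a in the overnight (-0.09) and 3-day (-0.06) groups of SS-13BN/Mcw. Other member values that changed sign when turned were Foxq1 in SS-13BN/Mcw overnight (-0.07), between strains at 3 days (0.35) and between times in SS-13BN/Mcw (-0.20), Tsc22d1 in SS (-0.02) and SS-13BN/Mcw (-0.10) at 3 days and between strains overnight (-0.07), and Ppp1r15a between times in SS-13BN/Mcw (0.03). Foxq1 in SS at 3 days was -0.00 and Ppp1r15a in SS overnight 0.23 with Cy3 arrays alone. With Cy5 arrays alone Foxq1 was 0.06 between strains at 3 days and -0.11 between times in SS-13BN/Mcw, Tsc22d1 -0.05 in SS-13BN/Mcw at 3 days, and Ppp1r15a 0.02 between times in SS-13BN/Mcw, where it was also 0.02 after quantile normalization and 0.06 with the block. List genes whose sign changed when arrays were turned were, in SS overnight, Bmp4 (0.00), Calr (-0.01), Irf1 (-0.12), Cebpd (-0.02), Nr3c2 (0.32), Agt (0.05) and Atp1b1 (-0.14). In SS at 3 days they were Ccn2 (-0.15), Id1 (0.07), Gadd45a (0.23), Foxj1 (0.12), Btg1 (0.17), Nr3c2 (0.24) and Atp1b1 (-0.13). In SS-13BN/Mcw overnight they were Bmp4 (0.15), Ccn2 (-0.12), Irf1 (-0.02), Agt (0.01) and Atp1b1 (-0.21). In SS-13BN/Mcw at 3 days they were Smad4 (-0.16), Fkbp1a (0.25), Egr1 (-0.16), Hes1 (-0.23), Nfkb1 (0.31), Scnn1a (-0.01) and Atp1b1 (-0.13).

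With Cy5 arrays alone the sign changed for Fkbp1a (0.10) and Nfkb1 (0.16) in SS-13BN/Mcw at 3 days, Btg1 (0.08) and Nr3c2 (0.00) in SS at 3 days, Nr3c2 (0.11) in SS overnight and Atp1b1 (-0.01) in SS-13BN/Mcw overnight. With Cy3 arrays alone it changed for Nfkb1 in SS overnight (-0.22) and at 3 days (-0.27) and Btg1 in SS-13BN/Mcw overnight (-0.01). Smad4 in SS-13BN/Mcw at 3 days ran from -0.01 without pair 3 to 0.35 without pair 2. Turning replaces the mean of swapped arrays by their difference, which holds the dye effect. The cause of the other changes was not tested. Beside the 6 turned values and Foxq1 in SS at 3 days, 386 member values stayed within the spread (SD over pairs, or SE of a difference) and 25 moved past it.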
